A study of Mus musculus with 16 samples.

Results

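The mitochondrial ribosomal protein genes are the 77 rows of the deposited transcript table whose symbol begins with Mrpl or Mrps and a number, among 11811 rows in all. The symbol alone chose them, with no measured value used. By symbol, 48 belong to the large subunit (Mrpl) and 29 to the small subunit (Mrps), and all 77 matched a protein-coding gene of GENCODE vM21 on mm10, spread over 17 chromosomes. Their levels were compared between the left ventricle (LV) of 8 TGAC8 and 8 wild-type (WT) mice, all of them C57BL/6 males aged 3 months, with 1 RNA-seq library from each mouse. TGAC8 mice carry a human ADCY8 cDNA, the source of a cAMP-producing adenylyl cyclase, under the α-myosin heavy chain promoter, so the transgene is driven in cardiac myocytes. The RNA came from LV free wall without the septum, which holds fibroblasts, vascular and immune cells beside the myocytes.

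The mitochondrial ribosome translates the few messenger RNAs of mitochondrial DNA, all of which encode subunits of the respiratory chain complexes and ATP synthase. Its RNAs come from the mitochondrial genome, but its proteins are encoded in the nucleus, made in the cytosol and imported. The small subunit reads the mRNA and the large subunit forms the peptide bond and sends the new chain to the inner membrane. Some of the proteins have relatives in bacteria and others are found only in mitochondria. Heart muscle is rich in mitochondria, and in humans inherited defects of several mitoribosomal proteins cause cardiomyopathy.

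Values are FPKM, which relate sequenced fragments to the length of the transcript and the size of the library, so levels of different genes are compared per length. The number of reads behind each value is unknown. As a check of the labels, human ADCY8 was measured at 503.4 ± 62.2 FPKM (SD, n = 8) in TGAC8 and at or below 0.345 FPKM in WT, with 7 WT libraries at 0 (exact 2-sided permutation test of log2 values, p = 0.000155). Summed FPKM was 314283 to 374087 in TGAC8 libraries and 356854 to 407506 in WT libraries. Differences were tested with limma on log2(FPKM + 0.1), for genes whose 16 libraries averaged 0.5 FPKM or more, and adjusted over all 11544 tested genes. A gene is called when its adjusted p is under 0.05, and since each library is a separate mouse, the test reads the spread between mice. On the deposited scale the median gene was higher in TGAC8 by 0.12 on the log2 scale, and after geometric scaling (a size factor per library, the median over genes of its ratio to the geometric mean) that shift was 0.0079. Many member changes are of the size of this shift, so counts of members are given on both scales.

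All 77 members passed the filter on low values. Their mean levels over the 16 libraries ranged from 2.31 FPKM for Mrpl19 to 111.3 FPKM for Mrpl42, with a median of 17.2 FPKM. The most abundant Mrpl transcripts were Mrpl42, Mrpl52 and Mrpl30, and the most abundant Mrps transcripts were Mrps21, Mrps9 and Mrps35. Summed over members, the level was 1771 to 2148 FPKM in TGAC8 and 1738 to 1982 FPKM in WT, ranges that overlap. As a share of the summed FPKM of a library, the members took 0.520 to 0.638% in TGAC8 and 0.443 to 0.556% in WT. The library sums ran lower in TGAC8, at 314283 to 374087 against 356854 to 407506 FPKM, so a higher share is not by itself a rise. After geometric scaling the median log2 fold change of members was -0.043.

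On the deposited scale, 13 members were higher in TGAC8 and 3 were lower, while 61 did not pass the test. The background over all tested genes was 20.9% higher and 4.65% lower, against 16.9% and 3.90% of members. Member fold changes were small, between -0.24 for Mrps27 and 0.43 for Mrpl14 on the log2 scale, with a median of 0.068, below the median of 0.12 over all tested genes. After geometric scaling 2 members were higher and 14 were lower, against a background of 9.78% higher and 10.7% lower. When 1 library was left out on that scale, the higher count ran from 2 to 4, the highest without TGAC8 library 2 or WT library 5, and the lower count from 11 to 16. The calls shared by both scales were Mrpl14 and Mrpl16, which rose, and Mrpl30, Mrps35 and Mrpl18, which fell. Values of the genotypes did not overlap for Mrpl14 and Mrpl16, both with TGAC8 above WT, and for 0 members with TGAC8 below WT, where the background is 4.79% above and 1.13% below.

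**Figure D1:**
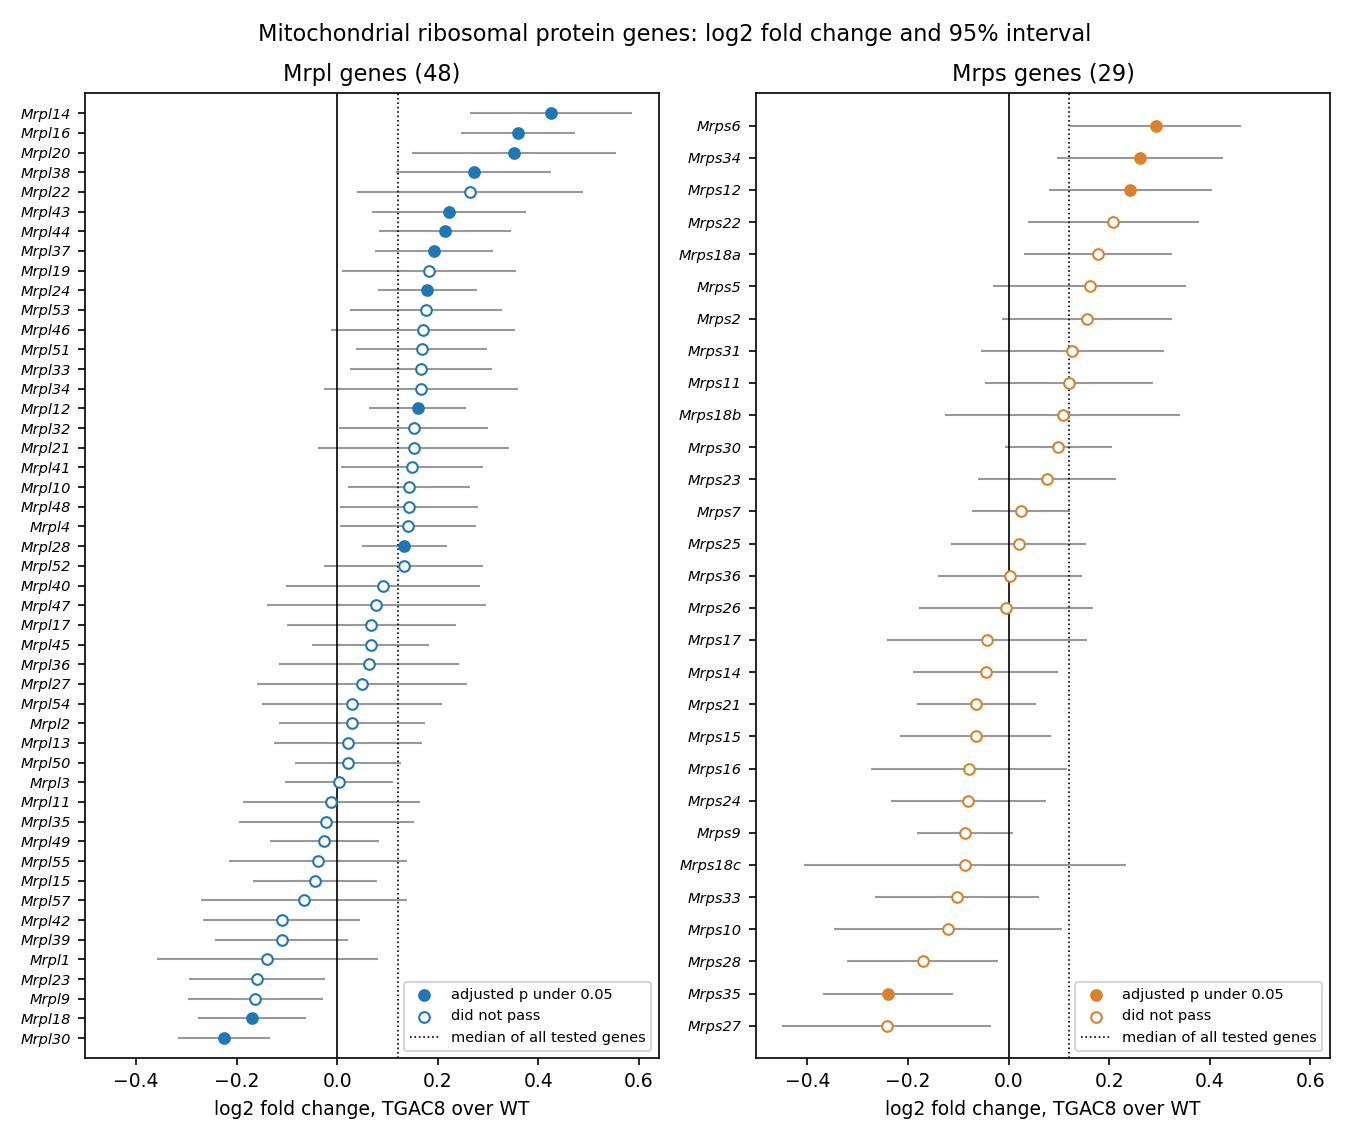
Log2 fold change of each Mrpl gene (left) and each Mrps gene (right), TGAC8 over WT, with its 95% interval from limma (n = 8 per genotype). Filled points passed an adjusted p of 0.05, open points did not, and the dotted line marks the median of all tested genes at 0.12, which 24 of 48 Mrpl genes and 9 of 29 Mrps genes exceeded.

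Mrpl16 and Mrpl14 were the members most clearly higher in TGAC8. Mrpl16 encodes a protein next to the peptidyl transferase centre, where the large subunit joins amino acids, and lies on mm10 chr19:11770391-11774960, plus strand, with no protein-coding gene overlapping it. Its level was 27.7, 29.1 and 35.5 FPKM (lowest, median and highest) in TGAC8 and 21.3, 23.3 and 25.1 FPKM in WT, so every TGAC8 library was above every WT library. This was a rise of 28.4%, or 0.36 ± 0.054 (SE) on the log2 scale (limma, adjusted p = 0.000105), and 0.24 after geometric scaling (limma, adjusted p = 0.00108).

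Mrpl14 encodes a protein of the large subunit's face towards the small subunit, where the assembly factor MALSU1 docks. Its level was 43.0, 49.5 and 53.9 FPKM in TGAC8 and 28.0, 36.4 and 41.9 FPKM in WT, again with no overlap. The log2 fold change was 0.43 ± 0.077 (SE), a rise of 34.3% (limma, adjusted p = 0.000577), and 0.31 after geometric scaling (limma, adjusted p = 0.00325). Mrpl14 (chr17:45686322-45698495, plus strand) overlaps Tmem63b on the opposite strand, with start sites 583 bases apart. Tmem63b, which encodes a mechanically gated ion channel, rose as well, with no overlap between genotypes, by 0.39 ± 0.061 (SE) (limma, adjusted p = 0.000142). No source used here says whether the authors' counting used strand, so reads of the overlapping pair cannot be told apart. Malsu1 itself did not pass the test, at 10.4, 12.9 and 17.8 FPKM in TGAC8 and 9.75, 12.02 and 15.3 FPKM in WT (limma, adjusted p = 0.666).

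Mrpl20 encodes a protein that, in bacteria, is needed early in large subunit assembly. Its level was 19.1, 23.5 and 26.2 FPKM in TGAC8 and 14.1, 17.7 and 22.7 FPKM in WT, and 5 of 8 TGAC8 libraries lay above the highest WT library. The log2 fold change was 0.35 ± 0.097 (SE) (limma, adjusted p = 0.0133), and after geometric scaling the call was lost at 0.24 (limma, adjusted p = 0.057).

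A further 7 Mrpl genes rose on the deposited scale by 0.13 to 0.27 on the log2 scale, and all 7 calls ended after geometric scaling. Mrpl38, a protein of the central protuberance at the top of the subunit, rose by 20.7%. Mrpl24 and Mrpl44, which lie near the exit of the peptide tunnel, rose by 0.18 and 0.21 on the log2 scale, and inherited defects of MRPL44 cause cardiomyopathy in humans. Mrpl12, the stalk protein that recruits translation factors and also binds the mitochondrial RNA polymerase, rose by 11.7%, from 46.1, 49.3 and 53.2 FPKM in WT to 51.3, 54.5 and 61.1 FPKM in TGAC8. Mrpl37, Mrpl43 and Mrpl28 rose by 14.3%, 16.7% and 9.68%. Adjusted p for these 7 genes in limma ran from 0.0099 for Mrpl24 to 0.0324 for Mrpl43, and the Mrpl43 call was lost in 7 of the 16 fits that left out 1 library, namely those without TGAC8 libraries 1, 3, 4 and 5 or WT libraries 1, 5 and 8, with adjusted p up to 0.0642. TGAC8 libraries lay above the WT median in 8 of 8 for Mrpl12, Mrpl24, Mrpl37, Mrpl38 and Mrpl44, and in 7 of 8 for Mrpl28 and Mrpl43. On the opposite strand Mrpl24 overlaps Rrnad1, Mrpl44 overlaps Wdfy1 and Mrpl43 overlaps Twnk. Whether the counting used strand is not known, so reads of these overlapping pairs cannot be told apart either.

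Mrpl30 and Mrpl18 were the Mrpl genes that fell on both scales. Mrpl30, an abundant member with a bacterial relative, was at 73.0, 84.4 and 90.9 FPKM in TGAC8 and 90.7, 97.5 and 100.7 FPKM in WT. Of its TGAC8 libraries 7 of 8 lay below every WT library, and the difference was -0.23 ± 0.044 (SE) on the log2 scale, a change of -14.5% (limma, adjusted p = 0.0011). Mrpl18, whose bacterial relative binds the smallest rRNA in the central protuberance, was at 62.6, 64.6 and 69.3 FPKM in TGAC8 and 65.9, 72.4 and 83.9 FPKM in WT. Its 8 TGAC8 libraries all lay under the WT median, and the difference was -0.17 ± 0.051 (SE), a change of -11.1% (limma, adjusted p = 0.0207). Mrpl18 overlaps Tcp1, a subunit of the cytosolic chaperonin, on the opposite strand, and Tcp1 was not called, at 0.061 on the log2 scale (limma, adjusted p = 0.38).

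The remaining 36 Mrpl genes did not pass on the deposited scale. The most abundant of all members, Mrpl42, was at 95.3, 102.5 and 135.5 FPKM in TGAC8 and 100.2, 116.8 and 129.8 FPKM in WT, at -0.11 on the log2 scale (limma, adjusted p = 0.292). Mrpl52, a protein of the central protuberance, had a fold change of 0.13 (limma, adjusted p = 0.207). Mrpl22, at the peptide tunnel, had a fold change of 0.26 with a wide interval of 0.039 to 0.49, and missed the threshold (limma, adjusted p = 0.0796). After geometric scaling 8 Mrpl genes were lower: Mrpl9, Mrpl15, Mrpl18, Mrpl23, Mrpl30, Mrpl39, Mrpl42 and Mrpl49.

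Of the small subunit genes, Mrps6, Mrps34 and Mrps12 rose on the deposited scale and Mrps35 fell. Mrps35, a protein found only in mitochondrial ribosomes, was at 31.8, 35.9 and 40.6 FPKM in TGAC8 and 38.3, 42.1 and 50.3 FPKM in WT. All 8 TGAC8 libraries lay under the WT median, and the difference was -0.24 ± 0.061 (SE) on the log2 scale, a change of -15.3% (limma, adjusted p = 0.00829), and -0.36 after geometric scaling (limma, adjusted p = 3.46e-05).

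Mrps6, a protein of the platform of the small subunit, was at 15.4, 19.3 and 20.7 FPKM in TGAC8 and 12.7, 15.2 and 18.5 FPKM in WT. Its 8 TGAC8 libraries lay above the WT median, at 0.29 ± 0.081 (SE) (limma, adjusted p = 0.0136). Mrps6 overlaps Slc5a3, the gene of a myo-inositol transporter, on the same strand, so the counting could split their reads, and Slc5a3 was not analysed here. Mrps34, which human small subunits need for stability, was at 16.2, 22.9 and 25.3 FPKM in TGAC8 and 16.03, 18.8 and 20.3 FPKM in WT, and 7 of its 8 TGAC8 libraries exceeded every WT library. The difference was 0.26 ± 0.078 (SE) (limma, adjusted p = 0.0207). Mrps34 overlaps Mapk8ip3 on the opposite strand and Nme3 on its own strand, and Nme3, a nucleoside diphosphate kinase, also rose, by 0.31 (limma, adjusted p = 0.0207). Mrps12, a protein of the decoding centre, rose by 18.3% (limma, adjusted p = 0.0275), a call that ended without TGAC8 library 6 or 8 or WT library 4, with adjusted p between 0.0528 and 0.0564. None of these 3 rises was called after geometric scaling, where 0 Mrps genes were higher (limma, 2 at an unadjusted p under 0.05; 0 by quantile normalization) and 6 were lower.

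**Figure D2:**
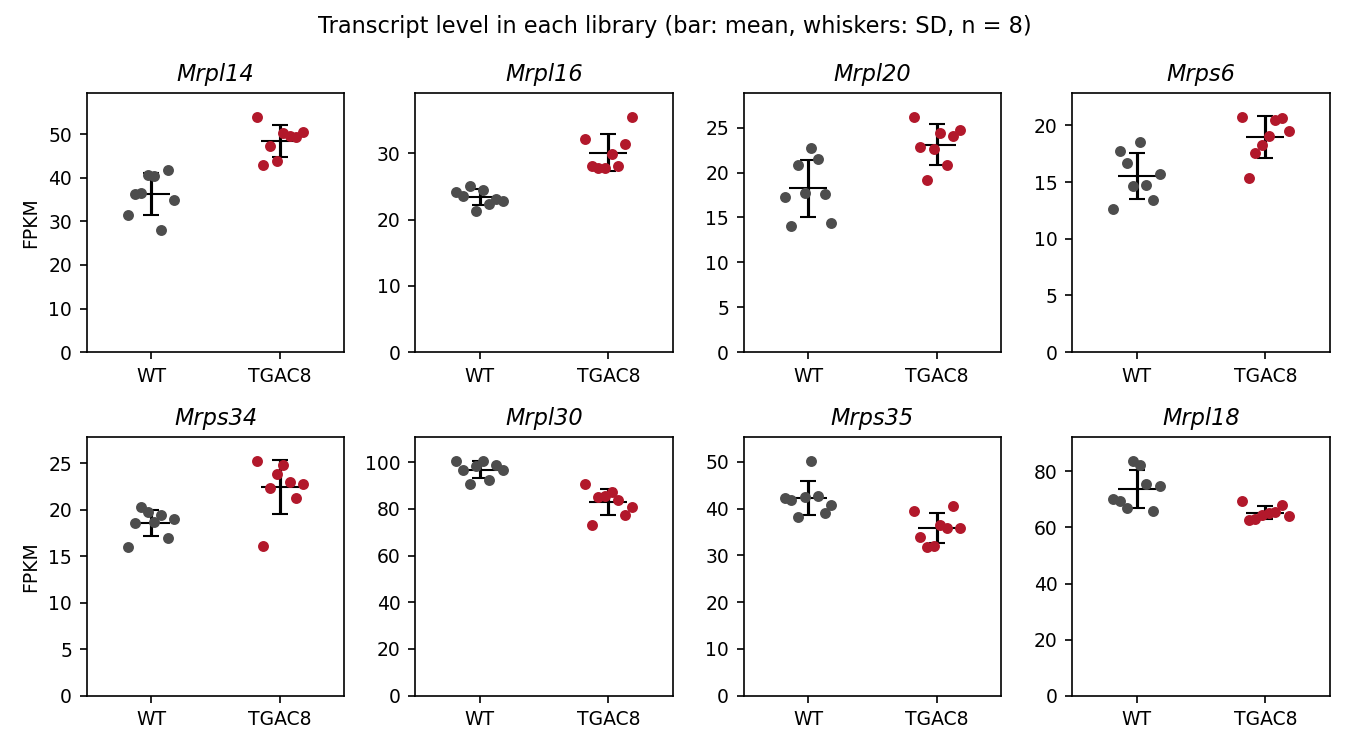
FPKM of 8 members in each of the 8 WT (grey) and 8 TGAC8 (red) libraries, with the mean as a bar and the SD as whiskers. For Mrpl14 and Mrpl16 every red point is above every grey point, and for Mrpl30, Mrps35 and Mrpl18 all TGAC8 points lie under the WT median with some overlap.

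The other 25 Mrps genes did not pass on the deposited scale. Mrps27, a mitochondria-specific protein, had the lowest fold change of all members, -0.24 with an interval of -0.45 to -0.035, at 5.67, 6.99 and 9.37 FPKM in TGAC8 and 7.08, 8.68 and 9.34 FPKM in WT (limma, adjusted p = 0.0804). It was called lower after geometric scaling, at -0.36 (limma, adjusted p = 0.0102). Mrps21 and Mrps9, the most abundant small subunit transcripts, had fold changes of -0.064 and -0.086 and were likewise called lower after geometric scaling only. Mrps22, in which inherited defects cause cardiomyopathy in humans and which was picked out after its values were seen, had a fold change of 0.21 with an interval of 0.039 to 0.38 (limma, adjusted p = 0.0661).

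By summed FPKM and mean log2 level, large subunit transcripts stood higher against small subunit transcripts in every TGAC8 library than in any WT library. The summed FPKM of the Mrpl genes divided by that of the Mrps genes was 1.94, 1.99 and 2.03 (lowest, median and highest) in TGAC8 and 1.86, 1.90 and 1.93 in WT. The genotype means were 1.98 ± 0.034 and 1.90 ± 0.026 (SD, n = 8), a difference of 0.0845. A ratio within a library does not depend on how libraries are scaled to each other. The mean log2 level of Mrpl genes minus that of Mrps genes likewise ran from 0.039 to 0.090 in TGAC8 and from -0.045 to 0.023 in WT, with means of 0.056 ± 0.017 and -0.0054 ± 0.026. After geometric scaling these ranges were 0.039 to 0.090 and -0.045 to 0.023. Another measure took the median log2 difference from the WT mean over Mrpl genes, minus that over Mrps genes. It ran from -0.0315 to 0.1254 in TGAC8 and from -0.0727 to 0.0593 in WT, so by medians the genotypes overlapped. All of these measures are given as a description, with no test.

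The separation of the ratio rested in part on the 2 members that rose most clearly. Without Mrpl14 and Mrpl16, a choice made after seeing the data, the ratio was 1.81 to 1.91 in TGAC8 and 1.77 to 1.83 in WT, and the ranges overlapped, with a difference of means of 0.0549. With all 16 called members left out, also chosen after seeing the data, it was 1.48 to 1.58 in TGAC8 and 1.41 to 1.5 in WT. These ranges overlapped, with a difference of means of 0.0659. The mean log2 difference without those members overlapped too, at -0.169 to -0.112 in TGAC8 and -0.224 to -0.139 in WT. Counting Mrps18a and Mrps30 as large subunit proteins, as their position in the ribosome requires, and leaving out Mrps36, the ratio was 2.29 to 2.38 in TGAC8 and 2.16 to 2.24 in WT with no overlap, while the mean log2 difference was 0.088 to 0.161 and 0.015 to 0.089 and overlapped. The summed Mrpl level was 1182 to 1434 FPKM in TGAC8 and 1139 to 1304 FPKM in WT, and the summed Mrps level was 588.4 to 713.4 and 599.6 to 678.7 FPKM, so neither sum separated the genotypes. In the cytosolic ribosome, whose proteins are encoded by separate genes, the mean log2 level of large minus small subunit genes was 0.035 to 0.108 in TGAC8 and 0.049 to 0.111 in WT, with means of 0.073 and 0.069. The ratio of summed FPKM of those genes was 1.53 to 1.62 in TGAC8 and 1.54 to 1.58 in WT, with means of 1.58 ± 0.029 and 1.56 ± 0.015 (SD, n = 8), so it too was higher on average in TGAC8, with 4 of 8 TGAC8 libraries above the highest WT library. Whether the cytosolic and mitochondrial ratios differ in their shift was not tested.

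**Figure D3:**
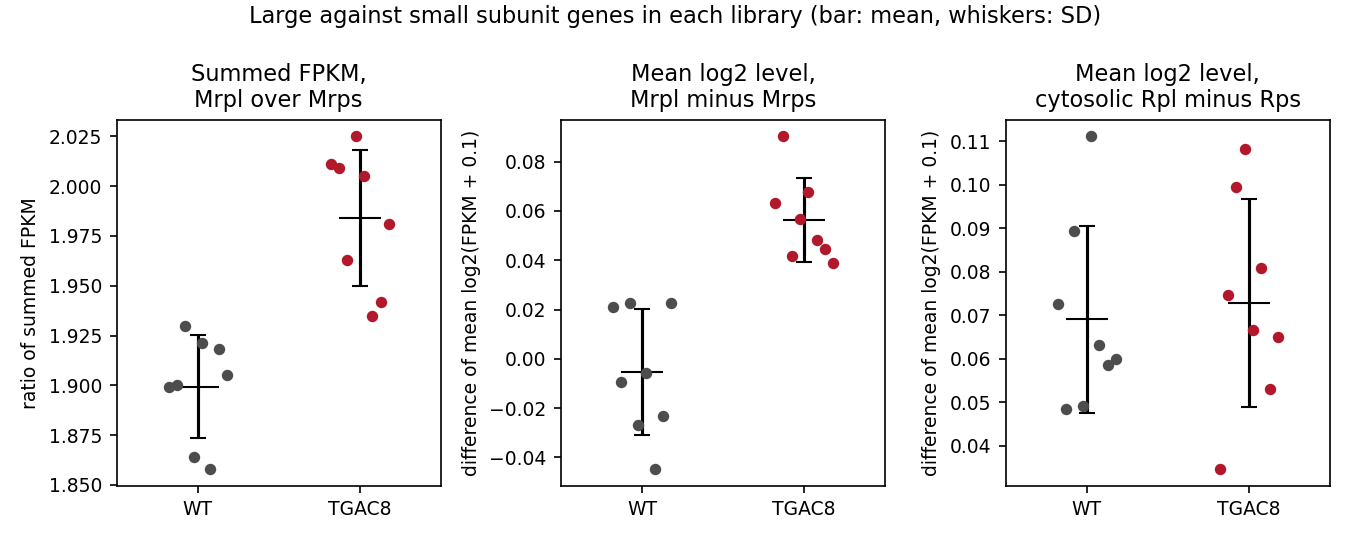
Large against small subunit genes in each WT (grey) and TGAC8 (red) library, as the ratio of summed FPKM (left) and the difference of mean log2(FPKM + 0.1) (middle) for mitoribosomal genes, and as the difference of mean log2(FPKM + 0.1) for cytosolic ribosomal genes (right), with the mean as a bar and the SD as whiskers (n = 8); the axes do not start at 0. The red points lie above all grey points in the left and middle panels, at 1.94 to 2.03 against 1.86 to 1.93 on the left, and overlap them on the right.

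By count, 10 of 48 Mrpl genes (20.8%) rose and 2 (4.17%) fell on the deposited scale, near the 20.9% and 4.65% of all tested genes. The Mrpl median log2 fold change was 0.11. Of 29 Mrps genes 3 (10.3%) rose and 1 (3.45%) fell, with a median of 0.0038. After geometric scaling the medians were -0.0036 and -0.11, with 2 higher and 8 lower Mrpl genes and 0 higher and 6 lower Mrps genes. The background on that scale was 9.78% higher and 10.7% lower. By structure the median was 0.12 over 50 large subunit genes and -0.024 over 26 small subunit genes, with the same counts of calls. Among large subunit genes, 6 of 30 with a bacterial relative rose (20%) and 2 fell (6.67%). Of 19 mitochondria-specific ones 4 rose (21.1%), so both shares of rises were near the background of 20.9%. Among small subunit genes, 2 of 16 with a bacterial relative rose (12.5%), with a median fold change of -0.055. Of 10 mitochondria-specific genes Mrps34 rose and Mrps35 fell (10% each). After geometric scaling both higher members, Mrpl14 and Mrpl16, were large subunit genes with a bacterial relative. On that scale 5 of the 30 and 3 of the 19 large subunit genes were lower, as were 4 of the 16 and 2 of the 10 small subunit genes. These counts are small, and whether the classes differ was not tested.

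Several members carry a symbol that does not match their place. Mrps18a and Mrps30 are proteins of the large subunit by structure, and their fold changes were 0.18 (limma, adjusted p = 0.0702) and 0.099 (limma, adjusted p = 0.163). The Mrps18 paralogs of the small subunit, Mrps18b and Mrps18c, had fold changes of 0.11 ± 0.111 (SE) and -0.087 ± 0.152 (SE). Mrps18c varied most, from 13.3 to 31.3 FPKM in TGAC8 and from 16.1 to 26.9 FPKM in WT. Mrps36 is now known as a component of the 2-oxoglutarate dehydrogenase complex of the citric acid cycle, and stood at 15.0, 17.5 and 21.0 FPKM in TGAC8 and 15.1, 17.5 and 19.4 FPKM in WT, a difference of 0.0038. The direction of Mrps18b, Mrps30 and Mrps36 turned after geometric scaling, to -0.0064, -0.016 and -0.11.

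The precision of single members bounded nearly all of them within a 1.5-fold change, and fewer within a narrower limit. The coefficient of variation within a genotype ran from 3.47 to 26.9%, with a median of 9.97%, and the median SE of a log2 fold change was 0.073. The 95% interval lay inside a 1.5-fold change in either direction for 76 of 77 members, including all 61 that were not called. That limit is wide, since the largest member change was a rise of 34.3%, for Mrpl14. Inside the narrower fold floor, listed with the alternative settings below, the interval lay for 52 of 77 members and 46 of the 61 not called. These intervals are on the deposited scale and do not include the shift between scales. Across the 16 libraries, with the genotype mean removed from each gene, members varied together less than the other families did. The mean pairwise Pearson correlation was 0.21 among members, 0.40 among 88 cytosolic ribosomal protein genes, 0.59 among 38 complex I subunit genes and 0.082 among all tested genes. After geometric scaling these values were 0.074, 0.19, 0.41 and 0.0001. The families stand in the same order by median level, at 17.2 FPKM for members, 37.3 for cytosolic ribosomal and 219.9 for complex I genes. The part of level in these correlations was not tested. The correlations are descriptions over libraries that share depth and scale, with no test.

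The upstream sequence of the members called on both scales is shown to place the motifs searched for, with RefSeq windows on GRCm38.p6 matched by symbol for 68 of 77 members, including all of these except Mrps35. Each run holds the 250 bases before the start site on the gene's strand: Mrpl14 at chr17:45686099-45686348 (plus), Mrpl16 at chr19:11770165-11770414 (plus), Mrpl30 at chr1:37890227-37890476 (plus) and Mrpl18 at chr17:12916092-12916341 (minus). Capitals mark matches to the motifs named next.
Mrpl14: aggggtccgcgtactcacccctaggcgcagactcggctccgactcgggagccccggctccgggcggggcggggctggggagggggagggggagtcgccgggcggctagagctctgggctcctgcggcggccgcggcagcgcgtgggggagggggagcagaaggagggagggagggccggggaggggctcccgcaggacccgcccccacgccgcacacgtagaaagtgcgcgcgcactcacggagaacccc
Mrpl16: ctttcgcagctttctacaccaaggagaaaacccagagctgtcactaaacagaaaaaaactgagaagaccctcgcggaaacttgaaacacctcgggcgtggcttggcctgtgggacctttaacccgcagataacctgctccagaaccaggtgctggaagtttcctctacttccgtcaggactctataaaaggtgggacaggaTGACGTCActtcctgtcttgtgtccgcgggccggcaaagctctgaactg
Mrpl30: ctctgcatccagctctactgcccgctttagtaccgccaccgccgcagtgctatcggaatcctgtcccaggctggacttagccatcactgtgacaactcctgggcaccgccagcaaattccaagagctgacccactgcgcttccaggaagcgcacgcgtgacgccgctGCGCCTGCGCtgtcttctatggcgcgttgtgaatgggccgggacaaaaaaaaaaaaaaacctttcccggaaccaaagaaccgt
Mrpl18: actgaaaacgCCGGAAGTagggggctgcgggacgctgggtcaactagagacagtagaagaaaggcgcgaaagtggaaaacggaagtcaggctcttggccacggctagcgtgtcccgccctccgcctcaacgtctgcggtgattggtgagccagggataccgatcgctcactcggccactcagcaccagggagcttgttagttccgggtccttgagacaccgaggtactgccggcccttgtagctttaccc
The motifs were those of NRF1 (GCGC, any base, then TGCGC), of ETS factors such as the subunit GABPA (CCGGAAGT), of YY1 (AAGATGGC), known regulators of nuclear genes for mitochondria, and the cAMP response element (CRE, TGACGTCA), the last searched after the Mrpl16 sequence had been seen. Both strands were searched in windows from 250 bases before to 50 after the start, and none of these motifs contains another. The Mrpl16 window holds the CRE letters 49 bases before the start, the Mrpl30 window an NRF1 motif 83 bases before it, and the Mrpl18 window an ETS motif 240 bases before it. The NRF1 motif of Mrpl14 lies wholly after its start, outside the printed run. A match is a description of the letters and not a shown binding site.

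Over all members with a window, 13 of 68 (19.1%) held the NRF1 motif, 12 (17.6%) the ETS motif and 12 (17.6%) the YY1 motif. In 8808 genes of the table with a window these shares were 11.7%, 9.31% and 5.51%. In all 27025 genes with a window they were 5.19%, 4.31% and 3.19%. At least 1 of these 3 motifs stood in 34 of 68 members (50%), against 24.1% of table genes, and in 23 of 42 large and 11 of 26 small subunit genes. The CRE letters stood in 2 members (2.94%), against 3.64% of table genes. The other member with CRE letters was Mrpl49, at 7.28, 7.999 and 9.02 FPKM in TGAC8 and 7.45, 8.23 and 8.72 FPKM in WT (limma, adjusted p = 0.75), so one member with these letters rose and the other was not called on the deposited scale and called lower after geometric scaling (limma, adjusted p = 0.0245).

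Some members share their start region with a neighbor. A protein-coding gene started within 1000 bases on the opposite strand of 33 members, within 100 bases for 12 of them, and 23 members overlapped a protein-coding gene on the opposite strand. The same counts over all genes were not made, so whether members differ from other genes here is unknown. Of the 33 partners 26 were tested, 3 rose (Tmem63b, Klc4 and Apba3) and 0 fell (limma, 0 at an unadjusted p under 0.05, and 0 by the exact rank-sum test), against the background of 20.9% higher and 4.65% lower. After geometric scaling 2 were higher and 1 was lower: Tmem63b and Klc4 were called, Apba3 was not (limma, adjusted p = 0.453), and Ndufb5, a complex I subunit that starts 615 bases from Mrpl47, was lower (limma, adjusted p = 0.0184). Only the pair of Mrpl14 and Tmem63b rose on both sides: Klc4 rose by 0.35 beside Mrpl2 at 0.030, and Apba3 by 0.19 beside Mrpl54 at 0.030. Among the 51 members that overlap no protein-coding gene on either strand, 7 rose (13.7%, against 20.9% of all tested genes) and 2 fell (3.92%, against 4.65%) on the deposited scale, with a median log2 fold change of 0.021. After geometric scaling the balance turned, with 1 higher, 11 lower and a median of -0.093.

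Genes that build and serve the mitoribosome were taken as lists, each read against the background of 20.9% higher and 4.65% lower. Of 7 mitoribosomal proteins with other symbols 0 rose (limma, 0 at an unadjusted p under 0.05, and 0 by the exact rank-sum test) and 1 fell. It was Ptcd3, an RNA-binding protein of the small subunit, at 16.1, 18.7 and 22.6 FPKM in TGAC8 and 21.4, 23.7 and 25.1 FPKM in WT, a difference of -0.32 ± 0.056 (SE) (limma, adjusted p = 0.00038). Of 31 assembly factors 4 rose and 2 fell. Mpv17l2, which the large subunit needs for assembly, rose from 1.45, 1.76 and 2.99 FPKM in WT to 1.88, 3.51 and 3.67 FPKM in TGAC8, by 0.68 ± 0.167 (SE) (limma, adjusted p = 0.0064). The RNA methyltransferases Mrm1 and Mettl15 rose by 0.32 and 0.46, and the endoribonuclease Ybey rose by 0.81 at levels near 1 FPKM, but these 3 calls ended after geometric scaling. That of Ybey was also lost in 10 of the 16 fits without 1 library, with adjusted p up to 0.0757. The pseudouridine synthase Rpusd4 fell by 0.54 and C1qbp fell by 0.20, both on either scale.

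Of 21 mitochondrial translation factors 1 rose and 3 fell. Letm1, an inner membrane protein that in yeast contacts the mitoribosome, was higher in every TGAC8 library than in any WT library, at 24.6, 27.0 and 30.0 FPKM against 20.7, 22.4 and 23.9 FPKM, a difference of 0.28 ± 0.043 (SE) (limma, adjusted p = 0.000129). Lrpprc, which stabilizes mitochondrial mRNAs, was lower in every TGAC8 library than in any WT library, at 24.0, 25.4 and 28.2 FPKM against 29.6, 30.8 and 34.3 FPKM, a difference of -0.28 ± 0.042 (SE) (limma, adjusted p = 0.000116). Both calls held after geometric scaling. Gatb fell by 0.30 and Tufm, the elongation factor that brings aminoacyl-tRNA to the ribosome, fell by 0.15, the latter at the edge of the threshold (limma, adjusted p = 0.0495) and lost in 12 of the 16 fits without 1 library, all except those without TGAC8 library 1, 4 or 8 or WT library 2 (adjusted p up to 0.0965). Gatb was lost in 7 of them, without TGAC8 library 2, 3, 5 or 6 or WT library 1, 2 or 8, with adjusted p up to 0.0646.

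Of 22 genes for mitochondrial DNA maintenance, transcription and RNA processing 1 rose and 3 fell. Hsd17b10, a subunit of mitochondrial RNase P and a dehydrogenase, was at 28.8, 34.4 and 40.1 FPKM in TGAC8 and 39.5, 45.7 and 47.7 FPKM in WT, a difference of -0.36 ± 0.062 (SE) (limma, adjusted p = 0.000378). Polg2 fell by 0.46, a call lost without TGAC8 library 1, 4, 5 or 6 or WT library 1, 4, 5 or 7, with adjusted p up to 0.0617. Mterf2 fell by 0.23, a call lost in 11 of 16 such fits, all except those without TGAC8 library 5 or 7 or WT library 1, 3 or 7, with adjusted p up to 0.0742. Ptcd1 rose by 0.41 on the deposited scale. Polrmt and Tfam, the mitochondrial RNA polymerase and its main DNA-binding partner, were not called, at 0.10 (limma, adjusted p = 0.268) and 0.0018 (limma, adjusted p = 0.988).

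Of 16 regulators of nuclear genes for mitochondria 3 rose and 0 fell (limma, 0 at an unadjusted p under 0.05, and 0 by the exact rank-sum test). Max, the partner of MYC, rose by 0.70 (limma, adjusted p = 0.000697). Its level was 10.9, 13.2 and 21.5 FPKM in TGAC8 and 6.40, 8.75 and 9.99 FPKM in WT, with no overlap. Esrra, a nuclear receptor, rose by 0.29 with no overlap between genotypes, and Ppard by 0.24, but both calls ended after geometric scaling. The factors whose motifs were searched were not called: Nrf1 had a fold change of -0.016, Gabpa of -0.045 and Yy1 of 0.084, and the coactivator Ppargc1a of -0.0098. Genes of the mitochondrial DNA itself were not analysed here.

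Set beside other families on the deposited scale, 1 of 88 cytosolic ribosomal protein genes rose and 2 fell, and 0 of 38 complex I subunit genes rose (limma, 0 at an unadjusted p under 0.05, and 0 by the exact rank-sum test) and 6 fell. Without 1 library the complex I count ran from 2 to 12, the highest without TGAC8 library 1. Median fold changes of these families were 0.0095 and -0.047, against 0.068 for members. After geometric scaling 25 of 88 cytosolic ribosomal and 25 of 38 complex I genes were lower, with median fold changes of -0.11 and -0.16. Of 77 members 14 were lower, with a median of -0.043. The background was 20.9% higher and 4.65% lower on the deposited scale and 9.78% and 10.7% after geometric scaling. All 3 families thus had medians below that of all tested genes on both scales. The counts depended on the scaling. Quantile normalization gave 1 higher and 6 lower cytosolic ribosomal genes, 1 higher and 0 lower complex I genes, and 4 higher and 10 lower members.

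**Figure D4:**
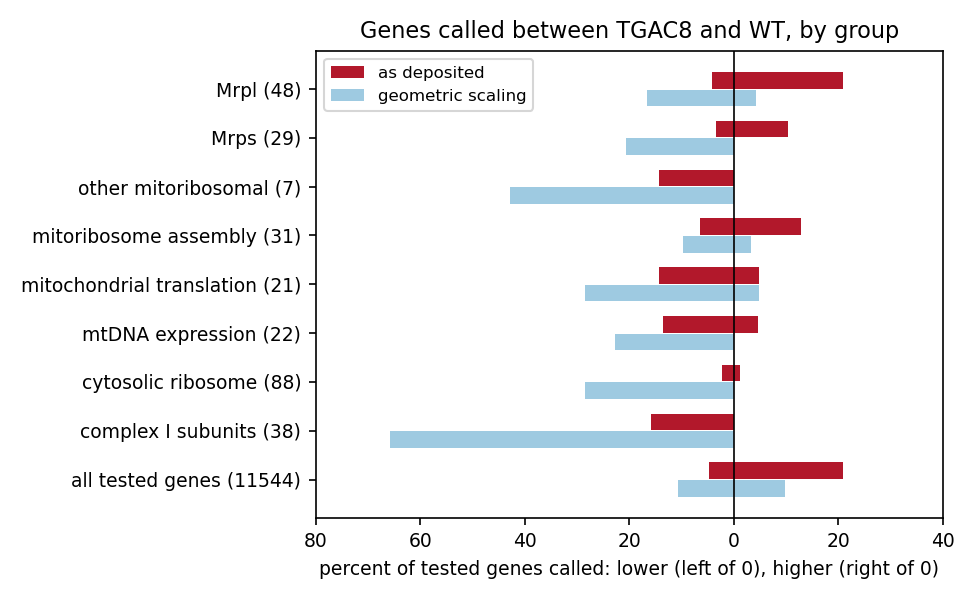
Percent of tested genes in each group called lower (bars left of 0) and higher (bars right of 0) in TGAC8, on the deposited scale (red) and after geometric scaling (blue), with the number of genes in brackets. On the deposited scale the Mrpl share called higher is 20.8% against 20.9% of all tested genes and the Mrps share 10.3%, and after geometric scaling lower calls outnumber higher calls in every group shown, with 10.7% lower and 9.78% higher over all tested genes.

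Markers of some cell types in the LV wall differed between genotypes. Their counts are read against 20.9% higher and 4.65% lower over all tested genes on the deposited scale. After geometric scaling that background was 9.78% and 10.7%. The 12 cardiomyocyte markers did not move together, with log2 fold changes from -0.50 for Myl3 to 0.48 for Ryr2 on the deposited scale. The summed FPKM of these 12 was 28120 to 33620 in TGAC8 and 33950 to 36840 in WT, and 5 of the 12 fell while 1 rose. That count depended on the setting, with 8 lower and 1 higher after geometric scaling, 1 lower and 2 higher by quantile normalization, and 3 lower with the replicate block. That of 12 fibroblast markers was 426.9 to 690.2 and 350.8 to 395.7 FPKM, with 11 higher on both scales, and that of 12 macrophage markers was 149.6 to 216.5 and 109.8 to 147.9 FPKM, with 10 higher on the deposited scale and 8 after geometric scaling. Of 12 endothelial markers 0 were called (limma, 1 at an unadjusted p under 0.05, and 0 by the exact rank-sum test), of 12 smooth muscle and pericyte markers 2 rose (after geometric scaling 2 were higher and 1 lower), and of 11 lymphoid and erythroid markers the table holds 4, with 0 called (limma, 0 at an unadjusted p under 0.05, and 0 by the exact rank-sum test). No marker of the cardiomyocyte, fibroblast or macrophage lists was at 0 in any library. The marker sums were not divided by the sum of the library, which was 314283 to 374087 FPKM in TGAC8 and 356854 to 407506 in WT. How far these lower library sums enter the lower cardiomyocyte sum was not tested. In such bulk RNA fewer cells of a type and less RNA per cell cannot be told apart, and the part of cell composition in the member values was not tested.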

How the data were processed

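LV RNA of 8 TGAC8 and 8 WT mice was made into 1 library per mouse (SMARTer stranded Pico kit) and sequenced from a single end. Per the study's methods, TopHat aligned the quality-trimmed reads to mm10 extended by the human ADCY8 cDNA, and the notes of the submitters name TopHat2 2.1.1. The authors computed FPKM per library with Cufflinks 2.1.1, which carries no counts. The paper gives a range of reads per library, but the reads behind each gene's value are unknown. Precision therefore comes from the spread between mice. The deposited table also holds the authors' Cuffdiff comparison: pooled FPKM, log2 fold changes, a test score, p-values and q-values, none of which was used. No source used here gives the gene annotation or says whether counting used strand.

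The test was limma 3.58.1 (R 4.3.3) with a variance trend, 2-sided, on log2(FPKM + 0.1) of the 11544 genes averaging 0.5 FPKM or more, adjusted over all of them by Benjamini-Hochberg at 0.05. The pseudocount makes fold changes of low genes too small. In simulated data of 11544 genes, 50 genes each were changed 1.25-fold, 1.5-fold, 2-fold and 4-fold. Limma recovered 32% of those changed 1.25-fold and 70% of those changed 1.5-fold, with 9 false calls (5.84%). In the measured data 2954 genes (25.6%) were called, so the adjustment set another cutoff there. The recovery therefore does not give the power of the test on the measured data. Members and lists were chosen with earlier results of these data known. Named members are the 10 with the smallest p in each direction, the 3 most abundant and the extreme fold changes per subunit, those whose genotypes do not overlap, and members with an unusual place or gene overlap. The other called members, Mrps22, Mrpl22 and Mrpl49 were added after their values were seen. In the other lists up to 3 called genes per direction follow the rule, and further ones were added likewise. No source used here pairs the mice by library number. Deviations of libraries with the same number were nearly uncorrelated (correlations from -0.0617 to 0.00672), which cannot show how the libraries were handled. Alternatives were other pseudocounts (1 and 0.01), filters (none, or 1 FPKM), scalings, a replicate block, no variance trend, an exact rank-sum test, array weights, a fold floor of 1.25, subunit by structure and leaving out each library. Figures were drawn with matplotlib 3.10.9.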

Additional observations from a re-analysis of the deposited data

Results flagged for a closer look

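In groups of 8 libraries, the highest or lowest library was compared with its nearest neighbor in 106 groups, and in 7 the gap was past Dixon's 95% critical value for 8 libraries, where chance flags about 1 in 20 groups. TGAC8 library 1 had the highest summed Mrpl level, 1434 FPKM, and the highest Mrps36 level in its genotype, 20.95 FPKM. Leaving it out gave 12 members higher and 5 lower. Mrps34 was at 16.15 FPKM in TGAC8 library 2, below the other 7. Mrps35 was at 50.28 FPKM in WT library 5, above the other 7, and its adjusted p stayed between 0.00433 and 0.0163 in the limma fits that left out 1 library. Mrps18c was at 16.12 FPKM in WT library 8, below the other 7. Outside the members, Max was at 21.52 FPKM in TGAC8 library 7 and Mterf2 at 7.784 FPKM in TGAC8 library 5, each above the other 7.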

How the results depend on the processing

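Counts of calls depended mainly on the scale between libraries. Without 1 library, members higher ran from 12 to 16 and lower from 3 to 5, Mrpl from 9 to 13 and from 2 to 3, and Mrps from 2 to 5 and from 1 to 2, with the most lower calls without TGAC8 library 1 and the most higher Mrps calls without WT library 6. No source used here gives libraries with the same number anything else in common. With the replicate block, members were 10 higher and 3 lower, and the calls of Mrps6, Mrpl28 and Mrpl43 were lost (limma, adjusted p = 0.0554, 0.0625 and 0.051). The block gave assembly factors 2 higher, mtDNA expression genes 1 lower, cytosolic ribosomal proteins 0 lower and complex I 2 lower.

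After geometric scaling members were 2 higher and 14 lower (Mrpl 2 and 8, Mrps 0 and 6). In other lists it gave other-name mitoribosomal genes 3 lower, assembly factors 1 higher, translation factors 6 lower, mtDNA expression genes 0 higher and 5 lower, regulators 1 higher, cytosolic ribosomal proteins 0 higher and 25 lower, and complex I 25 lower. Replicate block with geometric scaling gave members 2 higher and 12 lower (Mrpl 2 and 5, Mrps 0 and 7), other-name genes 2 lower, assembly factors 1 higher, mtDNA expression genes 0 higher, regulators 1 higher, cytosolic ribosomal proteins 0 higher and 15 lower, and complex I 22 lower. Quantile normalization gave members 4 higher and 10 lower (Mrpl 4 and 7, Mrps 0 and 3), other-name genes 2 lower, assembly factors 1 higher, translation factors 5 lower, mtDNA expression genes 0 higher and 5 lower, regulators 1 higher, cytosolic ribosomal proteins 6 lower, and complex I 1 higher and 0 lower. The cause of these moves beyond the scale itself was not tested.

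The fold floor, which admits fewer genes by construction, left members 3 higher and 0 lower (Mrpl 3 and 0, Mrps 0 and 0), assembly factors 1 lower, translation factors 0 higher and 0 lower, regulators 1 higher, cytosolic ribosomal proteins 0 higher and 0 lower, and complex I 0 lower. The exact rank-sum test gave 5 members lower, 4 of them Mrpl, and 1 translation factor lower. Without the variance trend 1 cytosolic ribosomal protein and 3 complex I genes were lower. Without 1 library, translation factors ran from 1 to 2 higher and 1 to 3 lower, mtDNA expression genes from 1 to 3 lower, cytosolic ribosomal proteins from 1 to 3 higher and 0 to 2 lower, and complex I from 0 to 1 higher and 2 to 12 lower.

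The ratio of summed FPKM kept its direction, at a difference of 0.1254 with subunits by structure and 0.0786 to 0.0915 without 1 library. Direction turned for Mrps18b (-0.0064 after geometric scaling, with and without the block, and -0.021 by quantile normalization), Mrps30 (-0.0158, with and without the block) and Mrps36 (-0.1113, with and without the block, -0.0908 by quantile normalization, and -0.0377 to 0.0304 without 1 library, below 0 in 8 of 16 fits). Mrps18c ran from -0.1644 to 0.0182 without 1 library, above 0 only without TGAC8 library 3. Of 50 single genes followed, other pseudocounts and no filter on low values changed 0 calls. Unknown read counts per gene limit what low-level genes such as Polg2 can show.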
